A study of Hordeum vulgare with 12 samples.

Results

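A set of 146 barley genes was defined as on in the cultivar Sebastian and off in the cultivar Bonus. A gene entered the set when it stood at 1 CPM (reads per 1000000 reads counted in genes, with library sizes scaled here by TMM) or more in all 3 Sebastian libraries and under 0.1 CPM in all 3 Bonus libraries. The set made up 0.651% of the 22437 genes with enough counts to be tested, out of 81687 gene IDs. Membership was decided by the Sebastian and Bonus values, so their contrast is given as a description and carries no test. The 2 mutants, nal1 in a Sebastian background and blf13 in a Bonus background, were not part of the limits, although their libraries entered the filter and the scaling: without blf13 replicate 1, blf13 replicate 2 or nal1 replicate 2, 144 members were found. Of the contrasts tested, nal1 against blf13 compares none of the libraries that the limits were set on, and each mutant against its cultivar uses 3 of them. The spread behind every test was estimated over all 12 libraries, so it draws on the Sebastian and Bonus libraries too.

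The study sequenced RNA from the basal centimetre of the shoot, with the apex and without leaf 1, of barley (Hordeum vulgare) at 7 days of age. Its 4 groups were the wild type Sebastian, the mutant labelled nal1 (Sebastian), the wild type Bonus and the mutant labelled blf13 (Bonus). Each group had 3 biological replicates, and each replicate was a pool of 6 plants, so variation between single plants is not seen. No treatment is named for any group, and each mutant is represented by 1 line, so other genetic differences between a line and its cultivar are part of every mutant contrast. The series title describes blf13 as gain of function, places it in the orthologue of rice NARROW LEAF1 and links it to leaf width.

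Bonus and Sebastian are both spring barleys used as parents of mutant collections. Cultivars of a crop differ in gene content as well as in sequence: a gene can be deleted or diverged in one cultivar, or be intact and not transcribed. In RNA-seq counted on a single reference annotation, here the gene IDs of the cultivar Morex, all of these states give few or no counts, and they cannot be told apart from counts alone. In rice, NARROW LEAF1 affects leaf width and vein number. The reference table used here pairs none of the gene IDs with a name, so the members are described by ID, level, place and state, and neither functional groups, sequences nor tissue markers are reported.

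Counts in genes came to between 14831979 and 62995658 per library. At these depths, 0.1 CPM stood for 1.98 to 2.73 counts in a Bonus library and for 2.76 to 4.05 counts in a blf13 library, so a member called off had at most 2 counts in a Bonus library. A count of 0 over all 3 libraries of a genotype, read against a floor of 3 counts, allows a level of up to 0.0438 CPM in Bonus and 0.0310 CPM in blf13. Floors and intervals given here cover counting error only.

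The members were mostly genes of low to moderate read level in Sebastian. Their mean in Sebastian ran from 1.05 to 56.3 CPM with a median of 3.43 CPM, where the 17561 tested genes that were on in Sebastian had a median of 16.4 CPM. CPM is not corrected for gene length, and gene lengths were not used here, so a level compared between genes mixes length with abundance. Of the members, 37 lay under 2 CPM, 22 reached 10 CPM, and 12 of these 22 were over 20 CPM. The share of genes on in Sebastian that were members was 2.51% between 1 and 2 CPM, 1.99% between 2 and 5 CPM, 1.15% between 5 and 10 CPM, 0.376% between 10 and 20 CPM and 0.150% above that. The Bonus limit was the same 0.1 CPM at every level, so a gene with a higher level needed a larger fold gap to enter. The rule itself thus favours members of low level, and its part in this fall was not tested. In a pool of whole tissue, fewer cells that express a gene and less RNA per cell cannot be told apart.

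The member with the highest level was HORVU.MOREX.r3.2HG0096370, near the start of chromosome 2H in ID order. It stood at 52.4, 56.3 and 60.2 CPM in the Sebastian libraries and at 38.2, 47.9 and 46.6 CPM in those of nal1. It had no count in any Bonus library, and in blf13 it had 0, 4 and 1 counts. Its levels in both Sebastian-background genotypes lay far above everything seen in the Bonus background, and the nal1 libraries all lay below those of Sebastian. The log2 fold change of −0.35 in nal1 did not pass the test used here (edgeR adjusted p = 0.0774). It passed in some other fits, among them that to the 6 libraries of this contrast (edgeR adjusted p = 0.0285). The next highest, HORVU.MOREX.r3.2HG0098400, also on 2H, stood at 41.4, 40.4 and 43.5 CPM in Sebastian and at 42.1, 38.8 and 41.4 CPM in nal1. Bonus held 1 count of this gene over its 3 libraries and blf13 held 2. Here the ranges of Sebastian and nal1 overlapped.

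**Figure D1:**
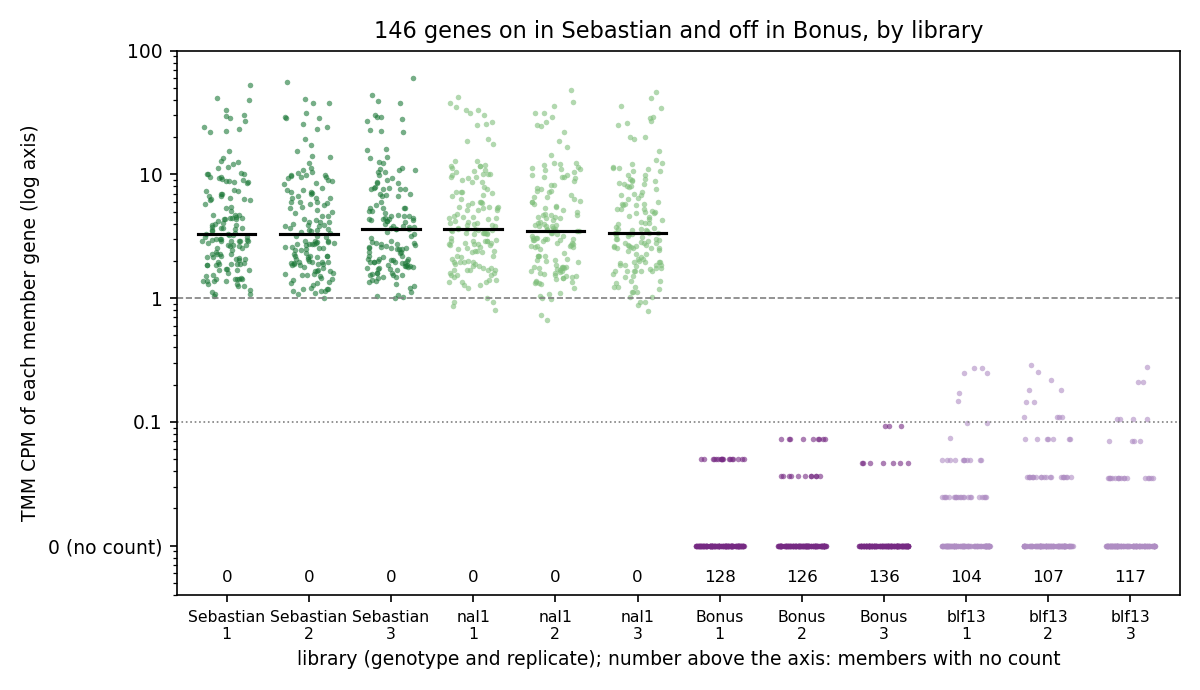
Level of each of the 146 members (points) in each of the 12 libraries, in TMM CPM on a log axis, with points without a count drawn at the bottom, their number printed above the axis, and the library median as a bar where it is above 0. Dashed and dotted lines mark 1 and 0.1 CPM. Medians were 3.27 to 3.62 CPM in Sebastian and 3.39 to 3.62 CPM in nal1, and 0 in all Bonus and blf13 libraries.

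Most members had no count at all in Bonus. In 111 of the 146 no read was counted in any Bonus library, 19 had 1 count, 9 had 2, 5 had 3 and 2 had 4 counts over the 3 libraries together. All members together had 60 counts in Bonus and 109017 in Sebastian. With genes at 0 set to the floor of 3 counts over the group, the ratio of Sebastian to Bonus had a median of 96.6 and ran from 19.3 to 2902. The unstranded counts leave out reads that overlap genes on both strands. The summed counts of the strand-specific columns showed no more reads in Bonus for any member, with 4 as the highest sum, and 0 members reached 10 such counts.

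The limits of the rule passed through a continuous range of values. The lowest Sebastian library of the member nearest the upper limit stood at 1.002 CPM, and that of the nearest gene left out at 0.990 CPM. The highest Bonus library of the member nearest the lower limit stood at 0.0929 CPM and that of the nearest gene left out at 0.101 CPM. Another 76 genes met the Bonus limit with a lowest Sebastian library between 0.5 and 1 CPM, and 34 met the Sebastian limit with a highest Bonus library between 0.1 and 0.2 CPM.

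Whether the mutants keep the state of their background cultivar was asked next. The difference between the backgrounds was present again in the mutant libraries: all 146 members were higher in nal1 than in blf13 at an adjusted p under 0.05 (edgeR quasi-likelihood test, Benjamini-Hochberg over 22437 genes), where 20.5% of all tested genes were. The adjusted p of the members ran from 1.49e-12 to 4.88e-05, with the spread estimated over all 12 libraries. With the 6 libraries of nal1 and blf13 alone all 146 still passed, at larger p-values. The filter and the scaling factors of that fit still came from all 12 libraries. The lowest value, that of HORVU.MOREX.r3.2HG0098400, became 5.59e-08 in that fit (edgeR adjusted p). The 3 nal1 libraries lay above the 3 blf13 libraries for every member, which held for 25.4% of all tested genes. The lowest value of any member in a nal1 library was 0.662 CPM and the highest in a blf13 library was 0.290 CPM. In this contrast the cultivar background and both mutations differ together and cannot be told apart.

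The size of the difference was limited by the counts in blf13. For the 85 members without a count in blf13, the ratio of nal1 to a floor of 3 counts over the group ran from 29.8 to 1139, with a median of 104. This ratio leaves out the counting error in nal1. The 95% counting intervals, which include it, had lower ends of 4.96 to 926 over all members, with a median of 71.3. For the 61 members with counts, the ratio of nal1 to blf13 ran from 7.89 to 2644 with a median of 178. Over all members, with those at 0 set to the floor, the median ratio was 128. The fitted log2 fold changes, with a median of 8.89 against 0.0015 for all tested genes, are set in part by the prior count where blf13 is at or near 0, and are no bounds. HORVU.MOREX.r3.2HG0096370 was 876-fold higher in nal1 than in blf13, with a 95% counting interval of 375 to 2701 (edgeR adjusted p = 2.52e-10). Of its 5 blf13 counts 4 were in replicate 2, and the fitted log2 fold change of 9.63 became 11.19 without that library and 8.88 without blf13 replicate 1.

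In nal1, 136 of 146 members (93.2%) were on by the same limit of 1 CPM in all 3 libraries, and none was off. The other 10 fell just short of the limit. Their lowest nal1 library stood at 0.662 to 0.939 CPM, their highest at 1.04 to 1.80 CPM, and in Sebastian they had a mean of 1.05 to 2.08 CPM. In 9 of them a single nal1 library was under 1 CPM, and in 1 of them 2 libraries were. HORVU.MOREX.r3.6HG0631300 on 6H, the one of these with the most negative fitted change, stood at 1.98, 1.90 and 2.36 CPM in Sebastian and at 0.939, 1.45 and 1.38 CPM in nal1. These ranges did not overlap, and the log2 fold change was −0.71 (SE 0.24), which did not pass the test (edgeR adjusted p = 0.0882). HORVU.MOREX.r3.1HG0037730 on 1H stood at 1.42, 1.15 and 1.34 CPM in Sebastian and at 0.872, 0.978 and 1.13 CPM in nal1 (log2 fold change −0.38, SE 0.26, edgeR adjusted p = 0.364). Both genes had no count in Bonus and none in blf13. How many of the 17561 tested genes on in Sebastian were also on in nal1 is not given here. The 93.2% of members thus has no background share beside it.

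Levels in nal1 were close to those in Sebastian. Summed over the 146 members, nal1 stood at 937 ± 20.9 CPM and Sebastian at 960.2 ± 11.9 CPM (SD, n = 3 each), so nal1 had 97.6% of the Sebastian sum. The log2 fold change of nal1 against Sebastian had a median of 0.02 over the members, with 75 above 0 and 71 below, and lay between −0.71 and 0.75. All 146 members were within 2-fold of Sebastian, against 98.5% of the tested genes that were on in Sebastian, and 140 (95.9%) were within 1.5-fold, against 93.8%. With cyclic loess scaling the median of the members was −0.22 and that of all tested genes −0.0043, so the balance of direction among the members depends on the scaling. Across the members, log2 means in Sebastian and nal1 had a Pearson r of 0.979 and a Spearman rho of 0.970, a description across genes that share libraries and depth. The coefficient of variation among the 3 nal1 libraries had a median of 11.7% over members and of 7.38% over all tested genes on in Sebastian, which have more reads per gene.

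**Figure D2:**
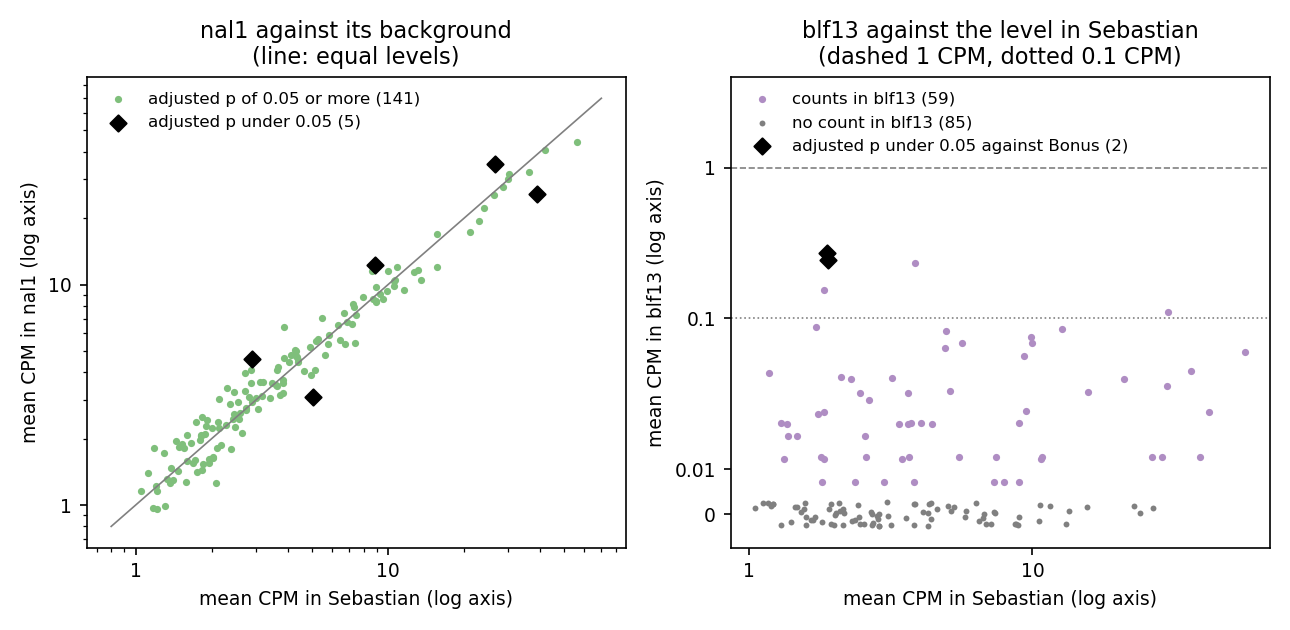
Left, mean level of each member in nal1 against Sebastian, in TMM CPM on log axes, with 5 members at an adjusted p under 0.05 as diamonds and a line of equal levels. Right, mean level in blf13 against that in Sebastian, with 85 members without a count drawn at the bottom and 2 members changed against Bonus as diamonds. Members follow the line of equal levels in nal1, and in blf13 all lie under 0.273 CPM whatever their level in Sebastian.

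Against Sebastian, 5 members changed in nal1, 3 higher and 2 lower. Of all tested genes 6.12% were higher, 5.42% lower and 11.5% changed in either direction. The Sebastian libraries of this contrast also chose the members. HORVU.MOREX.r3.5HG0438640 on 5H rose from 3.14, 2.90 and 2.60 CPM in Sebastian to 3.89, 5.01 and 4.87 CPM in nal1 (log2 fold change 0.69, SE 0.19, edgeR adjusted p = 0.0391). HORVU.MOREX.r3.6HG0546720 on 6H rose from 9.38, 9.48 and 7.79 CPM to 11.9, 12.5 and 12.4 CPM (0.47, SE 0.12, edgeR adjusted p = 0.0323). In both, every nal1 library lay above every Sebastian library. The third gene that rose, on 2H, had a mean of 26.6 ± 2.26 CPM in the Sebastian libraries and 35.1 ± 1.40 CPM in those of nal1 (SD, n = 3; log2 fold change 0.40, edgeR adjusted p = 0.0197). It was the only member within 5 IDs of genes that were off in Sebastian and on in nal1, and lay 2 IDs from the nearer of 2 such genes.

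The 2 members that fell were singled out after their values were seen. HORVU.MOREX.r3.1HG0036900 on 1H, one of the members with the highest levels, fell from 40.2, 37.7 and 39.2 CPM in Sebastian to 25.2, 25.3 and 27.0 CPM in nal1 (log2 fold change −0.59, SE 0.09, edgeR adjusted p = 0.00278). HORVU.MOREX.r3.7HG0645610 on 7H fell from 4.69, 5.76 and 4.64 CPM to 2.88, 3.00 and 3.39 CPM (−0.70, SE 0.16, edgeR adjusted p = 0.0283). The ranges of the genotypes did not overlap for either gene. With cyclic loess scaling both remained lower (−0.77 and −0.93) and none of the 3 raised genes passed the test, so that 9 members were lower and 0 higher. Of all tested genes, 1140 were higher and 840 lower with this scaling. Without nal1 replicate 2, without nal1 replicate 3 or without Sebastian replicate 3, 1 member was called, without Sebastian replicate 2 there were 2, and without blf13 replicate 3 there were 8. Over all tested genes, 312 to 599 rose and 347 to 502 fell without one of these nal1 or Sebastian libraries. Without blf13 replicate 3 these were 1556 and 1220, and with all libraries 1374 and 1216. HORVU.MOREX.r3.1HG0036900 was called without each library in turn.

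In blf13, 132 of 146 members (90.4%) were off by the limit of 0.1 CPM in all 3 libraries, and none was on. The other 14 exceeded 0.1 CPM in 1 library (8 genes), in 2 (2 genes) or in all 3 (4 genes), and none went above 0.290 CPM. Of all 354 tested genes off in Bonus, 7 were on in blf13, and how many were off there is not given here. HORVU.MOREX.r3.4HG0414860 on 4H had the highest mean of the members in blf13, at 0.247, 0.290 and 0.280 CPM, from 10, 8 and 8 counts. In Bonus it had 1, 2 and 0 counts. It averaged 1.88 ± 0.337 CPM in Sebastian (SD, n = 3) and stood at 1.95, 2.18 and 2.16 CPM in nal1, which was 7.89 times the level in blf13 (95% counting interval 5.17 to 12.5). HORVU.MOREX.r3.7HG0639330 on 7H stood at 0.272, 0.254 and 0.210 CPM in blf13, from 11, 7 and 6 counts, and had 0, 1 and 0 counts in Bonus. Its level was 1.72, 1.75 and 2.21 CPM in Sebastian and 2.35, 2.21 and 2.26 CPM in nal1. For both genes the low blf13 signal was present in every library and lay above every Bonus library.

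These were the 2 members that rose in blf13 against Bonus in the fit to 12 libraries without a replicate block. In that fit 1.21% of all tested genes rose and 3.19% changed in either direction. No member fell. The Bonus libraries of this contrast also chose the members and were held close to 0 by the rule, so a fall had almost no room and a rise is not independent of the choice. The log2 fold change was 2.52 (SE 0.52, edgeR adjusted p = 0.0244) for HORVU.MOREX.r3.4HG0414860 and 3.74 (SE 0.61, adjusted p = 0.00637) for HORVU.MOREX.r3.7HG0639330. By counts alone, the ratio of blf13 to Bonus was 6.14 with a 95% counting interval of 1.88 to 31.7 for the first gene and 17.0 with an interval of 2.77 to 700 for the second. Libraries of blf13 and Bonus with the same number varied together. With a replicate block over all libraries HORVU.MOREX.r3.7HG0639330 alone passed, and the adjusted p of HORVU.MOREX.r3.4HG0414860 became 0.0510. With the 6 libraries of this contrast alone, with or without that block, 0 members passed by edgeR. Of all tested genes 91 rose and 52 fell without the block, and 144 and 82 with it. In the fit to 12 libraries these were 271 and 445. With the 6 libraries and the block, the edgeR adjusted p was 0.151 for HORVU.MOREX.r3.4HG0414860 and 0.115 for HORVU.MOREX.r3.7HG0639330. In the edgeR fit to 12 libraries, 8 members had an unadjusted p under 0.05. DESeq2 called 2 members, 1 of them shared with edgeR, and gave no adjusted p for 21 of the 146. Its adjusted p for HORVU.MOREX.r3.4HG0414860 was 0.0536. Without blf13 replicate 1 or 2, or without Bonus replicate 1, 2 or 3, 1 member passed in blf13 against Bonus. Over all tested genes, 112 to 507 rose and 73 to 1234 fell in these fits. The change in nal1 against Sebastian less that in blf13 against Bonus, which also uses the libraries that chose the members, differed from 0 for 2 members and for 5.22% of all tested genes (edgeR adjusted p under 0.05).

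Members with low counts in blf13 were more frequent than in Bonus, where the rule had set a limit. In blf13 61 members had at least 1 count and 14 had a count in every library, against 35 and 1 in Bonus. The blf13 libraries were also deeper, with 26717701 to 38495728 counts in genes against 20207646 to 29173654 in Bonus, and the part of depth in these counts of members was not tested. Summed over the members, the level in the blf13 libraries was 0.283%, 0.324% and 0.211% of the Sebastian sum, and in Bonus 0.0948%, 0.111% and 0.0629%. Of the 254 counts in blf13, 89 came from 4 genes with 16 or more counts each. As a share of the same genes' sum in Sebastian, the blf13 level was 1.68% for members of 1 to 2 CPM and 0.0913% for those over 20 CPM. The Bonus level was 0.499% and 0.0336%, but the rule held Bonus under 0.1 CPM at every Sebastian level. The Bonus share of the higher members was thus bound to be small, and its fall is no separate result. Of the 94 blf13 counts of members of 1 to 2 CPM, 26 came from HORVU.MOREX.r3.4HG0414860 and 24 from HORVU.MOREX.r3.7HG0639330. The blf13 library with the highest share, replicate 2, also had the most unmapped reads (29.8%, against 10.3% to 17.8% in the other 11), and its part in the result was not tested. For the mirror set of 151 genes on in Bonus and off in Sebastian, the summed level was 0.101% to 0.147% of the Bonus sum in Sebastian and 0.169% to 0.293% in nal1. In both sets the libraries that the rule had limited were the lower ones.

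**Figure D3:**
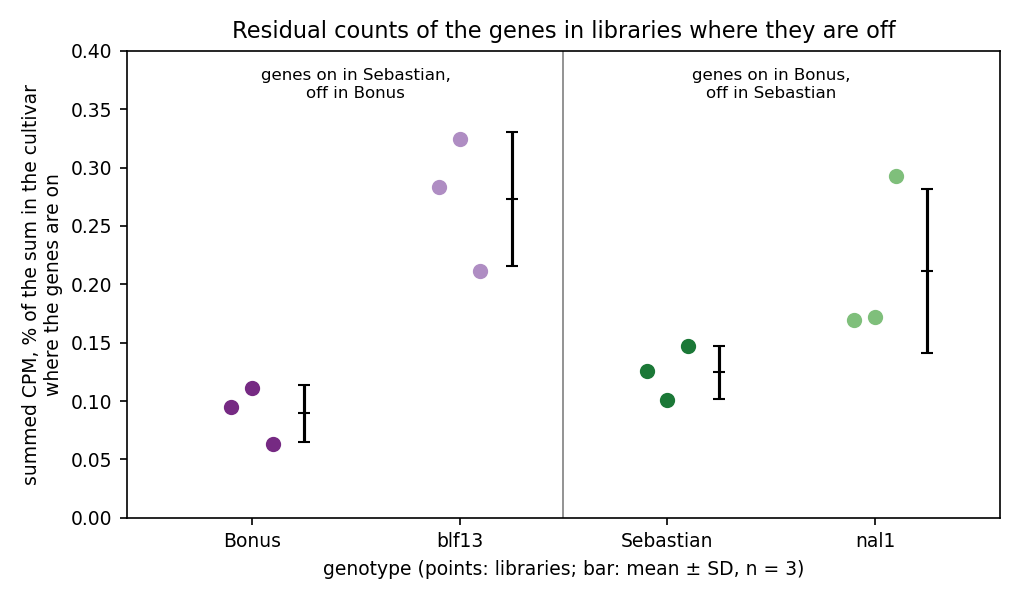
Summed CPM in libraries where the genes are off, as a percentage of the mean sum in the cultivar where they are on, for the 146 members in Bonus and blf13 (left) and the 151 genes with the reverse pattern in Sebastian and nal1 (right). Points are libraries and bars the mean ± SD (n = 3). Bonus lies at 0.0895 ± 0.0244% and blf13 at 0.273 ± 0.0573%, and Sebastian at 0.125 ± 0.0229% and nal1 at 0.211 ± 0.0706%.

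Taking both mutants, 122 of 146 members (83.6%) were on in nal1 and off in blf13, and 24 deviated from their background's state in 1 mutant, none in both. No member switched fully in either mutant. No share over all tested genes stands beside these counts. The mirror set was kept to a like degree, with 140 of 151 genes off in nal1 (92.7%) and 142 on in blf13 (94.0%), but 4 of its genes (2.65%) were off in blf13. A complete switch in blf13 did occur at other genes: 7 tested genes were off in Bonus and on in blf13, 4 of them on 5H. None of the 7 was on in Sebastian, where 5 were off and 2 in between, so none was a member, and the nearest member lay 18 IDs away.

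The members lay on all 7 chromosomes. Chromosome 5H held the most with 31 (21.2% of members and 15.9% of tested genes), followed by 3H with 24, 1H and 6H with 21 each, 2H and 4H with 18 each and 7H with 13. Per 1000 tested genes this was 8.68 on 5H, 7.65 on 6H, 7.43 on 1H, 6.99 on 3H, 6.44 on 4H, 4.82 on 2H and 3.96 on 7H. None of the 47 tested genes without a chromosome was a member. The mirror set had 6 genes on 1H (2.12 per 1000), the chromosome on which the sets differed most in number, and 12 on 7H (3.65 per 1000). The median level of the members in Sebastian lay between 2.38 CPM on 6H and 4.13 CPM on 7H. On 2H and 7H all members were on in nal1, and on 5H 30 of 31 were off in blf13.

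Members lay near the ends of the ID order more often than tested genes did, although most members lay elsewhere. In the first and last 10% of the ID order of a chromosome lay 54 members (37.0%), where 18.5% of the tested genes and 27.8% of the mirror set lay. On 7H 9 of 13 members were in these ends, on 5H 12 of 31 and on 4H 4 of 18. These shares are descriptions without a test or a match in level, and rank in ID order stands in for position.

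About 3 in 10 members stood side by side. Among the tested genes, 43 members (29.5%) formed 20 runs of consecutive ranks, of which 18 held 2 genes, 1 held 3 and 1 held 4. The mirror set had 35 genes (23.2%) in 14 runs, the longest also of 4. When untested genes between members are counted as breaks, 38 members remained in 18 runs. With gaps of up to 5 ranks allowed, 59 members lay in 25 groups, the largest of 4. Chromosome 5H had 6 of the 20 runs.

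The longest run lay on 1H and held 4 genes with consecutive IDs, from HORVU.MOREX.r3.1HG0020040 to HORVU.MOREX.r3.1HG0020070, at ranks 2004 to 2007 of 9547. In this order their means in Sebastian were 2.87 ± 0.126, 10.7 ± 0.872 and 15.6 ± 1.81 CPM (SD, n = 3) for the first 3 genes, and the last stood at 2.88, 2.90 and 2.33 CPM. In nal1 they were 3.58 ± 0.528, 10.5 ± 1.52, 16.9 ± 1.55 and 3.98 ± 0.333 CPM (SD, n = 3). The pattern of low outer and high inner genes was thus present in both genotypes. Bonus held 2 counts and blf13 1 count of the whole run. The rule that chose the members held each of these genes under 0.1 CPM in every Bonus library. Their low counts in Bonus are thus no separate result. In blf13 90.4% of all members were off, so low counts there in all 4 genes do not by themselves set the run apart. The run of 3 on 6H spanned 6 IDs, with means in Sebastian of 3.83, 36.3 and 1.84 CPM and 3.22, 32.4 and 1.54 CPM in nal1, and had 2 counts in Bonus and 5 in blf13. In 19 of the 20 runs every member was on in nal1, and in 17 every member was off in blf13. Over all members, 93.2% were on in nal1 and 90.4% off in blf13. Whether members in runs differ from these shares was not tested.

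**Figure D4:**
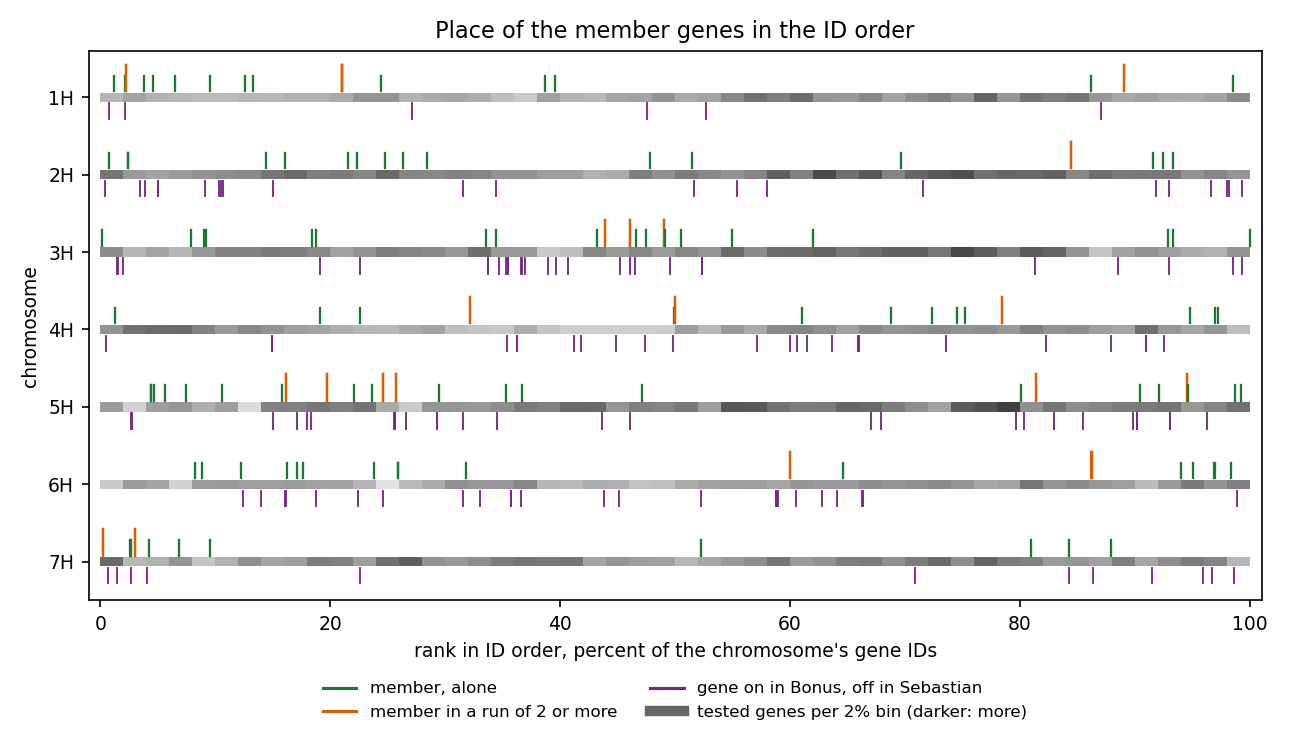
Place of the members on chromosomes 1H to 7H as rank in ID order, in percent of the gene IDs of the chromosome. Upward marks are members (long where they form a run of 2 or more), downward marks the 151 genes with the reverse pattern, and the grey band the number of tested genes in each 2% of the order. Of the members, 54 lie in the first or last 10%, and 43 lie in 20 runs.

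The genes next to the members were mostly expressed in Bonus. Of 243 nearest tested neighbours that were not members, 165 (67.9%) were on in Bonus, against 77.1% of all tested genes. Among the 175 neighbours that were on in Sebastian, 89.1% were also on in Bonus, against 95.4% of all tested genes on in Sebastian. Both shares were thus lower beside the members than over all tested genes, a description without a test. A gene of the mirror set was the nearest tested neighbour in 4 cases and lay within 5 IDs of a member in 5 cases, never at the adjacent ID.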

How the data were processed

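Per the labels' protocols, TRIzol was used to extract total RNA and a NEBNext Ultra RNA kit to build the libraries, with no strand marking stated. The deposited values are raw read counts per gene, laid out as STAR writes them, and the submitters' processing notes name STAR 2.7.3a. Which build, trimming or filters were used is not given in the sources used here. Reads with several mapping places count for no gene in this layout, so near-identical copies are undercounted, and reads of antisense neighbours cannot be told apart. The unstranded column was used, without the 4 summary lines of each file (15.7% to 37.9% of its reads).

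Genes were filtered with edgeR's filterByExpr by genotype, scaled by TMM and tested with edgeR 4.0.16 in R 4.3.3 (quasi-likelihood F test, 1 coefficient per genotype, all 12 libraries). Every member passed the filter, as its Sebastian values guarantee. The contrasts were nal1 minus blf13, nal1 minus Sebastian and blf13 minus Bonus. DESeq2 1.42.0 and cyclic loess (limma 3.58.1) were alternatives, and the scripts were tested on simulated data. Fits to the 6 libraries of a contrast alone kept the filter and scaling factors of all 12 libraries. A run is 2 or more members with consecutive ranks in ID order among tested genes. At most 2 genes were named of each kind: the highest in Sebastian, those not on in nal1 with the most negative change, those raised in nal1, those not off in blf13 with the highest level, and the ends of the longest run. Genes that fell in nal1 were named after their values were seen. The members, limits and tests were chosen with earlier results of these data known.

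Between replicates of 1 genotype, chi-square per degree of freedom was 3.76 to 11.0, so none was a copy of another. Deviations from the genotype mean, correlated between blf13 and Bonus libraries of equal number, gave 0.219, 0.315 and 0.213, and these were taken as paired, from the data alone. The pairs of nal1 with Sebastian gave −0.0997, −0.0408 and 0.110 and those of nal1 with blf13 −0.267, 0.0464 and −0.0394, and were not.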

Additional observations from a re-analysis of the deposited data

Results flagged for a closer look

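The change of nal1 against Sebastian differed from that of blf13 against Bonus for 2 members. These are different mutants in different cultivars, so mutation and background cannot be told apart in this difference. It also uses the Sebastian and Bonus libraries that chose the members, and Bonus was held under 0.1 CPM, so the blf13 change had room in 1 direction only and the p-values are not independent of the choice. For HORVU.MOREX.r3.7HG0639330 this difference was −3.49 on the log2 scale (edgeR adjusted p = 0.00998), and it stayed under an adjusted p of 0.05 without each library in turn, between −5.62 and −3.06. For HORVU.MOREX.r3.4HG0414860 it was −2.36 (edgeR adjusted p = 0.0339), and it missed the threshold with a replicate block (adjusted p = 0.0637) and without 10 of the 12 libraries taken singly. Both differences rest on 24 and 26 counts in blf13 against 1 and 3 in Bonus. Over all tested genes, 5.22% differed by this test, and 2 of the 146 members (1.37%) did.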

How the results depend on the processing

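All 146 members stayed higher in nal1 than in blf13 under every alternative fitted: RLE size factors, cyclic loess, no low-count filter, DESeq2, the 6 libraries alone, a replicate block, both of these together, and without each library. Over all tested genes, 3620 to 4772 were higher in these fits. The number of members depended on the limits: it was 222 with on at 0.5 CPM, and 98 with on at 2 CPM, 111 with off at no count and 180 with off under 0.2 CPM. It was 144 to 158 when a library was left out, 145 with RLE factors, without the filter or with strand columns summed, of which 144 were shared in the last case. Members in runs were 22 with on at 2 CPM, 75 with on at 0.5 CPM, 22 with off at no count and 43 to 46 without a library. Members off in blf13 were 79 of 111 when off meant no count, and 130 to 139 without a library. Members on in nal1 were 136 to 147 and the share on 5H 20.5% to 21.7% without a library. The 222 genes found with on at 0.5 CPM and the 155 found without Sebastian replicate 3 each held 1 gene that was on in blf13. The sets of the other settings held 0. This gene was none of the 146 members, which stayed at or under 0.290 CPM in blf13. The 5 members changed in nal1 against Sebastian became 9 with loess, 8 without the filter, 15 with the 6 libraries alone (7 higher, 8 lower), 9 with these and a replicate block (added after seeing the data) and 1 to 8 without a library. Calls over all tested genes moved too, from 1374 higher and 1216 lower. They were 1140 and 840 with loess, and 2115 and 1557 of 40148 without the filter. With the 6 libraries alone they were 1735 and 1467, and with these and the block 1419 and 922. Without a library they were 312 to 1615 higher and 347 to 1515 lower. The 2 members changed in blf13 against Bonus became 4 without the filter, 0 with the 6 libraries alone, 1 with a replicate block, 0 with both, and 1 to 3 without a library. Over all tested genes, the calls in this contrast went from 271 higher and 445 lower to 1095 and 969 without the filter. They were 91 and 52 with the 6 libraries alone, 208 and 286 with a replicate block, and 144 and 82 with both. Without a library they were 112 to 553 higher and 73 to 1234 lower. The replicate block did not change the members called in nal1 against blf13 or in nal1 against Sebastian by over 1.5 times. The causes of these changes were not tested. Depth limits the off state to the floors given and ratios of members near 0 to bounds. The replicates being pools of plants, p-values measure the spread between pools.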
